A study of Mus musculus with 24 samples.

Results

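Glycolysis genes were followed in LSK-SLAM cells, a sorted bone marrow fraction enriched for hematopoietic stem cells (HSCs), from young and old mice. The set was defined by name and comprised the glucose transporter gene *Slc2a1* and the genes of glycolytic enzymes *Hk1*, *Hk2*, *Pfkl*, *Pfkp*, *Aldoa*, *Pgk1*, *Eno1*, *Pkm* and *Ldha*. Of these 10 genes, 8 had a row among the 18762 genes of the table, all 8 had a mean of at least 10 and were tested, and *Pfkp* and *Aldoa* were not analysed here. All mice were wild type (WT) C57BL/6 animals without treatment in the labels, 5 young (4 to 5 months) and 7 old (20 to 22 months), ages that the labels give and that differ from those in the study's text. RNA came from 15000 sorted cells, 300 pg of ribosomal-depleted RNA entered library preparation, and the 24 labelled samples are 2 for each of the 12 mice, so that a mouse was counted once. In such bulk RNA, fewer cells that express a gene and less RNA per cell cannot be told apart.

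On GRCm38 (GENCODE vM21), *Slc2a1* lies at chr4:119108711-119137983 and *Eno1* at chr4:150236721-150248879 on the plus strand. *Hk1* lies at chr10:62268855-62379908 and *Pfkl* at chr10:77986947-78010083 on the minus strand, as does *Hk2* at chr6:82725025-82774454. *Pgk1* lies at chrX:106187100-106203699, *Pkm* at chr9:59656368-59679375 and *Ldha* at chr7:46841475-46855627, all on the plus strand.

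Glycolysis converts glucose to pyruvate in the cytosol. Transporters bring glucose into the cell, hexokinases phosphorylate it, phosphofructokinase commits it to breakdown, and the later enzymes yield ATP and pyruvate, which lactate dehydrogenase can reduce to lactate. Quiescent HSCs reside in a bone marrow of low oxygen and are known for relying on glycolysis more than their cycling progeny, with several of these enzyme genes being textbook targets of the hypoxia-inducible factor HIF-1.

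The normalized read count used throughout is the number of reads of a gene divided by an effective library size, per M reads, and is not corrected for gene length. Recovered reads per mouse ranged from 0.861 to 5.12 M, and single glycolysis genes rested on 11 to 3487 reads. Each mouse label ends in A or B, a letter whose meaning is not given in the sources used here. Letter A stood on 2 young and 4 old mice and letter B on 3 young and 3 old mice, and every mouse with letter A (0.861 to 3.11 M reads) was shallower than every mouse with letter B (3.23 to 5.12 M). Summed LSK-SLAM and stem cell genes (9 of 9 with a row, among them *Kit*, *Ly6a*, *Slamf1*, *Procr*, *Hlf*, *Fgd5*, *Mecom* and *Gata2*) were lowest in old mouse 5 (1681) and old mouse 7 (2354), which were also the shallowest libraries, and lay between 3207 and 6080 in the other mice. Neutrophil and monocyte genes (12 of 13 with a row, none at 0 in every mouse) summed to 4654 in old mouse 6, 1399 in old mouse 5 and 355 to 1116 in the others. Summed levels of other lineages ranged from 92.4 to 848 for erythroid genes, 394 to 521 for B lineage, 37.5 to 170 for T and NK lineage, 94.7 to 243 for megakaryocyte and 113 to 343 for endothelial and stromal genes. The sort-negative and progenitor genes *Cd48*, *Cd34* and *Flt3* summed to 167 to 293 in young and 98.0 to 139 in old mice. Each result is therefore also given by letter, and its relation to these marker levels was not tested.

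Per kilobase of annotated exon, *Ldha*, lactate dehydrogenase A, was the most abundant member with 136 ± 46.9 normalized reads per kb (SD, n = 12). *Pkm*, pyruvate kinase, followed with 60.6 ± 21.4. *Hk1* (21.6 ± 5.19), *Eno1* (18.9 ± 11.2), *Hk2* (18.7 ± 6.34) and *Slc2a1* (18.5 ± 3.82) differed among each other by less than their spread, and *Pfkl* (14.3 ± 1.77) and *Pgk1* (11.8 ± 7.32) came last. The order depended on the letter. In mice with letter B, *Eno1* reached 28.8 ± 5.00 and *Pgk1* 18.4 ± 3.19 normalized reads per kb (n = 6), whereas in mice with letter A they stood at 9.0 ± 3.68 and 5.17 ± 1.66.

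With age, 0 of the 8 glycolysis genes differed past an adjusted p of 0.05 by limma, where 13 of 12354 genes (0.105%) did (12 higher and 1 lower in old mice). At an unadjusted p under 0.05, limma also gave 0 of the 8, where 488 of 12354 genes lay under it. The largest estimate was that of *Hk2*, whose mean was 87.7 ± 14.8 normalized reads in young (SD, n = 5) and 129 ± 40.7 in old mice (SD, n = 7). Among all genes, 0.461% had young and old values without overlap, and none of the 8 did.

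*Slc2a1*, the gene of the glucose transporter GLUT1, had normalized read counts of 79.0, 68.7, 75.3, 70.2 and 53.5 in young mice 1 to 5 and of 56.5, 67.3, 61.7, 45.3, 89.2, 68.0 and 44.3 in old mice 1 to 7. The ages overlapped, with the highest and the lowest value both in old mice. The difference, old minus young, was -0.19 on the log2(value + 1) scale (SE 0.20, limma adjusted p = 1.0).

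*Hk1* and *Hk2* encode the hexokinases that trap glucose in the cell, of which *Hk1* is known as the broadly expressed form and *Hk2* as the more regulated one. *Hk1* had 162, 137, 246, 222 and 169 normalized reads in young and 217, 203, 208, 235, 116, 178 and 121 in old mice (log2 difference -0.05, SE 0.22, limma adjusted p = 1.0). *Hk2* had 76.2, 90.4, 105, 97.5 and 69.3 normalized reads in young and 127, 150, 179, 154, 50.5, 129 and 114 in old mice. For *Hk2*, 6 of the 7 old mice lay above every young mouse, while old mouse 5 had the lowest value of all 12. The log2 difference of *Hk2* was 0.48 (SE 0.25, unadjusted p = 0.0729 and adjusted p = 1.0 by limma).

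*Pfkl* encodes the liver-type subunit of phosphofructokinase, the committed step. Its normalized read counts were the most even of the set, 90.8, 116, 91.4, 91.6 and 102 in young and 116, 74.1, 96.9, 87.9, 87.6, 92.1 and 98.4 in old mice. Young and old mice overlapped (log2 difference -0.08, SE 0.16, limma adjusted p = 1.0).

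*Pgk1*, phosphoglycerate kinase, catalyses the first ATP-yielding step, and *Eno1*, enolase 1, the step before pyruvate kinase. *Pgk1* had 4.67, 13.0, 43.8, 47.1 and 45.2 normalized reads in young and 13.1, 44.8, 27.7, 39.1, 15, 10.4 and 13.5 in old mice. *Eno1* had 51.0, 57.7, 179, 139 and 145 in young and 57.4, 163, 188, 116, 25.3, 74.6 and 24.6 in old mice. Within both ages these values fell into a low and a high group, and the mice of the low group were those with letter A. The age differences were -0.17 for *Pgk1* (SE 0.53) and -0.49 for *Eno1* (SE 0.48), each with a limma adjusted p of 1.0.

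*Pkm* encodes the M-type pyruvate kinase, whose M1 and M2 forms arise by alternative splicing and are not told apart in counts per gene. Its normalized read counts were 203, 175, 376, 333 and 353 in young and 298, 440, 468, 394, 156, 255 and 187 in old mice. *Ldha* had 343, 307, 500, 419 and 417 in young and 626, 593, 631, 678, 185, 378 and 319 in old mice. Of the old mice, 4 lay above all young mice for *Ldha* and 3 did for *Pkm*, and old mouse 5 was the lowest of all mice for both. The log2 differences were 0.09 for *Pkm* (SE 0.29) and 0.19 for *Ldha* (SE 0.30), each with a limma adjusted p of 1.0.

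**Figure D1:**
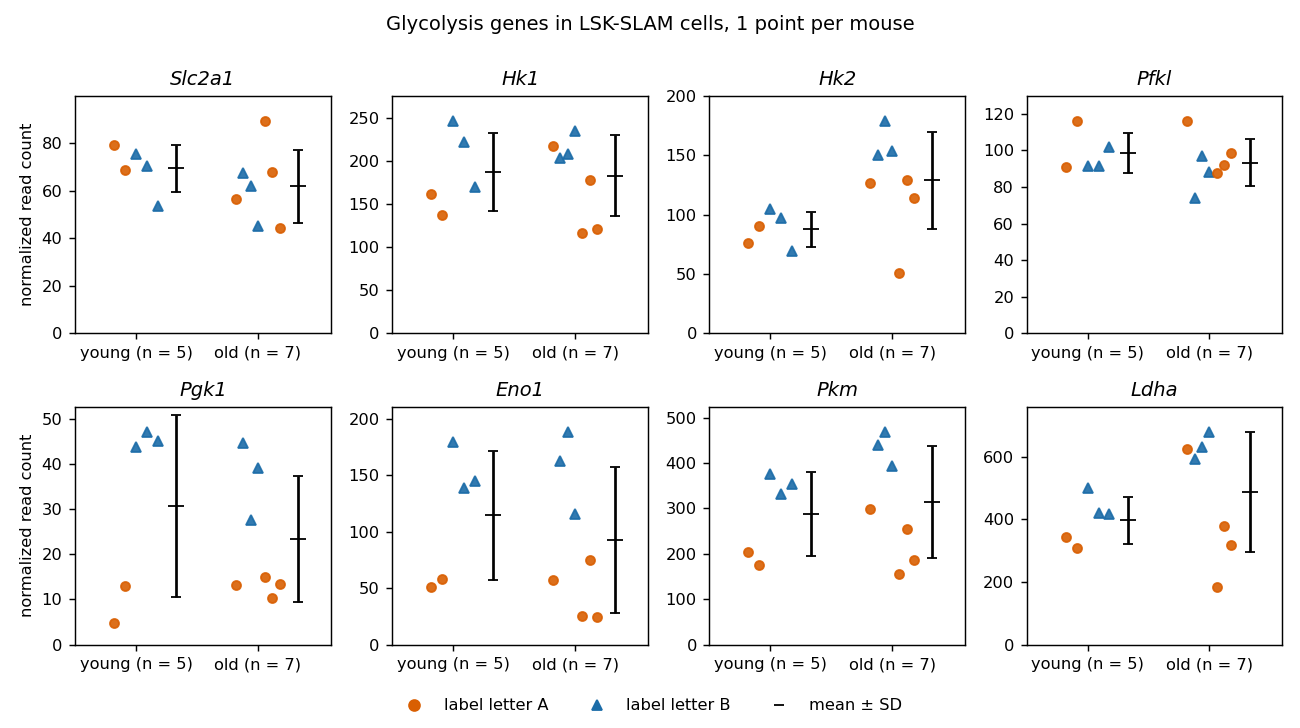
Normalized read count (vertical axes, from 0) of each of the 8 glycolysis genes in 5 young and 7 old mice, with 1 point per mouse, circles for label letter A, triangles for letter B, and the mean ± SD in black. *Hk2* lies between 114 and 179 in 6 old mice against 69.3 to 105 in young mice, while *Pgk1*, *Eno1* and *Pkm* separate by letter.

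The letters were distributed unequally over the ages, so the age comparison was repeated with the letter as a covariate. Then 37 of 12354 genes (0.299%) passed the threshold and again 0 of the 8 glycolysis genes did. The estimate of *Hk2* was 0.56 on the log2 scale (SE 0.22, unadjusted p = 0.0155, adjusted p = 0.659 by limma). That of *Eno1* moved from -0.49 to -0.20 and that of *Pgk1* from -0.17 to 0.14. *Ldha* stood at 0.31 (SE 0.23) and *Pkm* at 0.25 (SE 0.18), both with a limma adjusted p of 0.996. The median difference of the 8 genes was 0.09, beside -0.05 over all genes tested.

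Within the mice of letter B alone (3 young, 3 old), *Hk2* passed the threshold, as did 100 genes in all (0.809%). Its difference was 0.84 on the log2 scale (SE 0.19, limma adjusted p = 0.0256), a 1.79-fold higher level in old mice. The call was kept without young mouse 3 (limma adjusted p = 0.0136) and lost without any other of the 6, with log2 differences from 0.66 to 0.95 and the highest limma adjusted p of 0.157 without young mouse 5. It was also lost by edgeR with TMM factors (adjusted p = 0.0692) and without the variance trend (adjusted p = 0.568), and kept by DESeq2 (adjusted p = 0.0209). Old values lay above young values without overlap for 3 of the 8 genes in letter B, *Hk2*, *Pkm* and *Ldha*, where 6.72% of all genes tested did so. *Ldha* had a log2 difference of 0.51 there (SE 0.16, limma adjusted p = 0.183) and *Pkm* of 0.29 (SE 0.16, adjusted p = 0.693). Markers moved with age in the same 6 mice. The old ones had higher *Slamf1*, the gene of the sort marker CD150 (log2 difference 0.88, SE 0.20, limma adjusted p = 0.0235), and lower *Cd34* (-1.10, SE 0.19, adjusted p = 0.000808), a gene low on the most primitive HSCs. They also had lower *Mpo*, a gene of myeloid progenitors (-2.16, SE 0.54, limma adjusted p = 0.0464). Summed neutrophil and monocyte genes were 355 to 397 against 437 to 1116 in the young ones. Of the 10 genes tested of that list, 9 estimates lay below 0 and 1 above. *Prtn3* went the other way, with 55.0 ± 19.5 normalized reads in young and 96.6 ± 12.2 in old mice (SD, n = 3 each). In the megakaryocyte list 1 gene was called lower, and in the T and NK list 1 higher. The part of cell content in the *Hk2* values was not tested.

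Within the mice of letter A (2 young, 4 old), the *Hk2* difference was 0.25 (SE 0.38, limma adjusted p = 1.0), with 76.2 and 90.4 normalized reads in young and 50.5 to 129 in old mice. Whether the *Hk2* difference itself changed with the letter was tested as an interaction, which gave 0.59 on the log2 scale (SE 0.43, limma adjusted p = 1.0). Of all genes, 0.0162% passed this interaction test and none of the 8 did. Within letter A, the age difference was 0.08 for *Ldha* (SE 0.42) and 0.20 for *Pkm* (SE 0.36).

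Old mouse 5 decided the *Hk2* call over both letters. Without it, and with the letter as a covariate, *Hk2* was higher in old mice by 0.72 (SE 0.16, limma adjusted p = 0.0234), as 1 of 8 glycolysis genes and beside 0.615% of all genes. Without old mice 5 and 7, the 2 shallowest libraries with the fewest reads of stem cell genes, the difference was 0.75 (SE 0.16, limma adjusted p = 0.00841), 0.955% of all genes passed, and *Ldha* stood at 0.54 (SE 0.15, adjusted p = 0.0755) and *Pkm* at 0.39 (SE 0.13, adjusted p = 0.237). Without a letter term, *Hk2* missed the threshold in both cases (limma adjusted p = 0.155 and 0.0537). Old mouse 5 had the lowest *Hk2* value of all mice, so leaving it out raises the difference by construction. The smaller p-values without it are therefore no support for a difference. Leaving out mice 5 and 7, and leaving out a mouse with the letter as a covariate, were chosen after the data were seen. The *Hk2* estimate was above 0 in all 28 alternatives of the age comparison (0.25 to 0.84) and in all 23 of the comparison with the letter (0.44 to 0.75), and it was called in 1 and 2 of them.

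**Figure D2:**
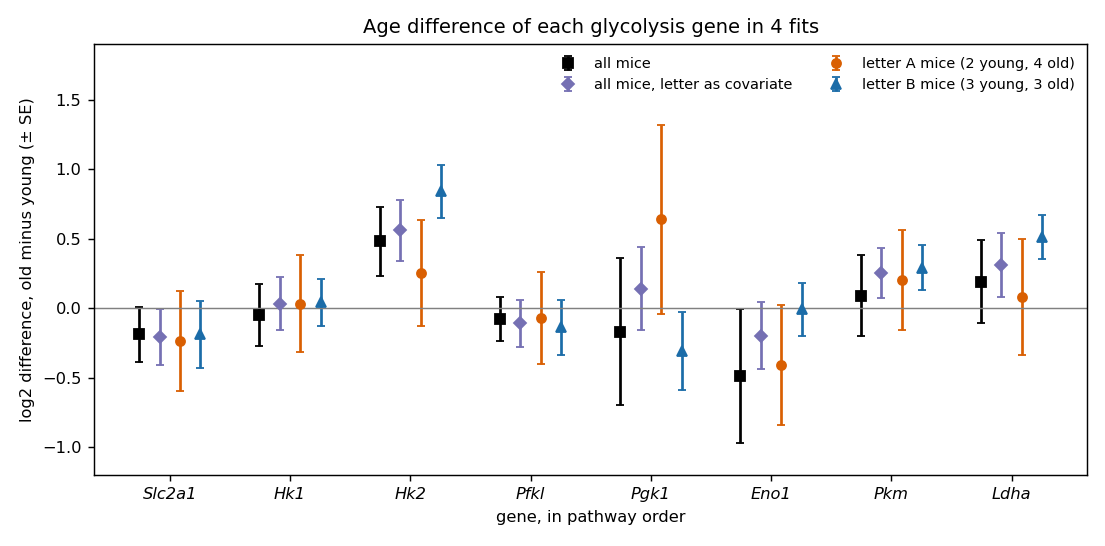
Log2 difference, old minus young, with its SE (vertical axis) for each glycolysis gene in pathway order (horizontal axis), in all 12 mice, in all mice with the letter as a covariate, and within each letter. *Hk2* has the highest estimate in 3 of the 4 fits (0.48, 0.56 and 0.84), and *Pgk1* takes opposite signs in letter A (0.64) and letter B (-0.31).

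Ratios between related genes of a step do not depend on how a library was scaled. The log2 ratio of *Hk2* to *Hk1* was -1.07 ± 0.27 in young (SD, n = 5) and -0.54 ± 0.37 in old mice (SD, n = 7), a shift of 0.53 towards *Hk2*. This gave p = 0.0278 in a two-sided exact permutation test and p = 0.0833 after adjustment over the 3 ratios tested, which does not pass the threshold. The young mice had -1.08, -0.59, -1.22, -1.18 and -1.27 and the old mice -0.77, -0.44, -0.22, -0.61, -1.18, -0.45 and -0.07. Old mice 1, 4 and 5 overlapped with the young mice, and the other 4 old mice were above all of them. Without old mouse 5 the shift was 0.64 with an adjusted p of 0.0292 in the same exact permutation test. That mouse had the lowest ratio of the old mice, so leaving it out raises the shift by construction. Within letter B the shift was 0.80, where the exact permutation test of 3 against 3 mice gave p = 0.100, the smallest it allows. Within letter A the shift was 0.21 (exact permutation p = 0.600). The ratio of *Ldha* to *Ldhb*, the heart-type subunit, differed by 0.04 between the ages (exact permutation p = 0.878). That of *Slc2a1* to *Slc2a3*, the gene of the transporter GLUT3, differed by -0.29 (exact permutation p = 0.33).

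*Hk2* and *Ldha* were 2 of the 3 glycolysis genes whose old values lay above the young ones without overlap in letter B. Of all genes tested, 6.72% did so. Their promoters are shown as examples and were picked after these values were seen. Both are textbook HIF-1 targets, as are several other members. A part of HIF-1 in the age differences was not tested. The windows run from 250 bases before to 50 after the annotated start, as RefSeq on GRCm38.p6 gives them, at chr6:82774405-82774704 on the minus strand for *Hk2* and at chr7:46845554-46845853 on the plus strand for *Ldha*. Capitals mark ACGTG and GCGTG on either strand, the core letters of the hypoxia response element, where overlapping matches of both strands form 1 longer run.
Hk2: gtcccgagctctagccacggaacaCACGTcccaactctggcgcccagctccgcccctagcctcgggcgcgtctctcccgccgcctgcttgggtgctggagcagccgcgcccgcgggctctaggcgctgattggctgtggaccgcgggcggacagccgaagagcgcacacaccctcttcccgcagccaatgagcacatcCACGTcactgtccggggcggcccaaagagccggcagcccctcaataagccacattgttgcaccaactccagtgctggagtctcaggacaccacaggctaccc
Ldha: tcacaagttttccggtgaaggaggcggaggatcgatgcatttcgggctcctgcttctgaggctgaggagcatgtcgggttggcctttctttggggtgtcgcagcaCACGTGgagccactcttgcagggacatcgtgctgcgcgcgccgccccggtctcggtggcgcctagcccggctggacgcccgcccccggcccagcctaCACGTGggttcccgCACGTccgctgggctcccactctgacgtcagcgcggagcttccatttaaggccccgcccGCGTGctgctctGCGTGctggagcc
The *Hk2* window held 2 matches of ACGTG and 0 of GCGTG. The *Ldha* window shown, the first of 2, held 5 and 2, with ACGTG read on both strands of 2 CACGTG sites. The second *Ldha* window, at chr7:46846832-46847131, held 0 and 2. Over all 32851 promoter windows, 19.6% held ACGTG and 32.4% GCGTG at least once. Of the other members, *Slc2a1* had 1 and 1 matches, *Pgk1* 2 and 0, *Pfkl* 0 and 1, and each of the 3 *Eno1* windows 0 and 2. For *Hk1* the first of 2 windows had none and the second 2 and 3, and for *Pkm* the first of 2 had none and the second 2 and 0. These matches are letters in a window, and no binding was measured here.

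Between the label letters more of the set was called than between the ages. With age as a covariate, 5 of the 8 glycolysis genes were higher in letter B, where 10.5% of all genes tested were higher and 25.6% lower (1301 and 3161 genes). The median difference of the 8 genes was 0.60 on the log2 scale, beside -0.09 over all genes. Rescaling by median ratios moved the median of all genes to 0.21 and the split of calls to 3360 higher and 2541 lower, with 6 of the 8 members called. When the minimum mean was raised to 50, which left 4799 genes, 830 were higher and 113 lower in letter B with a median of 0.305, and 3 of the 7 members then tested were called. *Pgk1* differed by 1.82 (SE 0.30, limma adjusted p = 0.000117), from 11.6 ± 3.71 normalized reads in letter A to 41.3 ± 7.15 in letter B (SD, n = 6 each). *Eno1* differed by 1.72 (SE 0.24, adjusted p = 9.47e-06), from 48.4 ± 19.8 to 155 ± 26.9. *Pkm* differed by 0.95 (SE 0.18, adjusted p = 0.000548), from 213 ± 53.7 to 394 ± 51.7. For these 3 genes the letters did not overlap, where 3.16% of all genes tested lay higher in letter B without overlap.

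*Ldha* (0.70, SE 0.23, limma adjusted p = 0.0185) and *Hk1* (0.49, SE 0.18, adjusted p = 0.0362) also passed the threshold, but with overlapping letters. *Ldha* lost it without old mouse 4 (adjusted p = 0.0519). *Hk1* kept it in 4 of 12 fits that left out a mouse and lost it without young mouse 2, 3 or 4 or old mouse 2, 3, 4, 5 or 7 (limma adjusted p from 0.0511 to 0.0981). *Hk2* differed by 0.45 (SE 0.21, adjusted p = 0.0974), *Pfkl* by -0.16 (adjusted p = 0.476) and *Slc2a1* by -0.14 (adjusted p = 0.611), and the last 2 signs turned under median ratio rescaling. Cell type markers and depth moved with the letter. The summed stem cell genes were 1681 to 4485 in letter A and 4276 to 6080 in letter B, with 9 of 9 estimates above 0, 4 called higher and a median of 0.65. Of the 10 neutrophil and monocyte genes tested 4 were lower in letter B (median -1.31), with sums of 370 to 4654 in letter A and 355 to 1116 in letter B. Of the 7 endothelial and stromal genes 4 were lower (median -1.33), with sums of 224 to 343 and 113 to 213. Of all genes tested, 10.5% were higher and 25.6% lower in letter B. At a minimum mean of 1, which lets in more genes of low level, 1397 were higher and 5125 lower. The part of cell content in the letter differences was not tested. With the reads of every mouse thinned to 861047, *Pgk1* differed by 1.35, *Eno1* by 1.74, *Pkm* by 0.95, *Ldha* by 0.71 and *Hk1* by 0.49, all past the threshold (limma adjusted p from 4.16e-06 to 0.0497).

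Of the 20 other genes of the glycolytic steps that were tested, 3 were higher and 6 lower in letter B, beside 10.5% and 25.6% of all genes. *Gapdh*, the gene of the dehydrogenase before phosphoglycerate kinase and a common reference gene, had 11.2 to 23.4 normalized reads in the 6 mice with letter A and 673 to 928 in the 6 with letter B (log2 difference 5.37, SE 0.17, limma adjusted p = 4.12e-19). Its mean was thus 41.1 times higher in letter B, and the low values rested on 19 to 45 reads. *Pgam1*, phosphoglycerate mutase, differed by 3.31 (SE 0.48, adjusted p = 2.65e-05) and *Gpi1*, glucose-6-phosphate isomerase, by 0.77 (SE 0.20, adjusted p = 0.00583). The 6 genes lower in letter B, among them *Slc2a6*, *Hkdc1*, *Bpgm*, *Pklr* and *Slc16a3*, were of low level, with means of 16.9 to 31.8 in letter A and of 5.31 to 14.9 in letter B against a median of 35.9 over all genes tested. With the letter as a covariate, *Gapdh* differed by 0.36 with age (SE 0.18, limma adjusted p = 0.964).

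**Figure D3:**
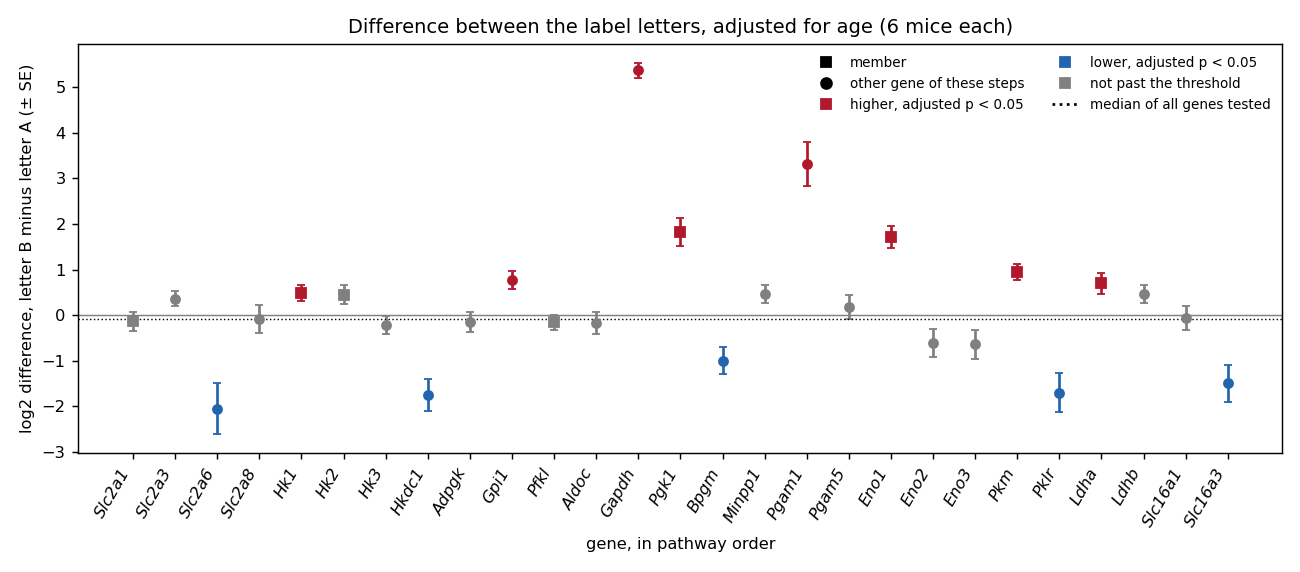
Log2 difference between the letters, B minus A adjusted for age, with its SE (vertical axis) for the 8 glycolysis genes (squares) and 19 other genes of the same steps (circles) in pathway order (horizontal axis). *Gapdh* (5.37) and *Pgam1* (3.31) stand highest, followed by *Pgk1* (1.82) and *Eno1* (1.72).

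The glycolysis genes differ in how much of their sequence recurs in the genome, since many glycolytic mRNAs have left processed pseudogenes, copies without introns. As a description chosen after the data were seen, the percent of 50-base words of a gene's annotated transcripts that also occur in an annotated pseudogene was set beside the letter difference. This percent was 53.9 for *Pgk1*, 19.0 for *Eno1*, 14.2 for *Pkm* and 8.98 for *Ldha*, and 0 for *Slc2a1*, *Hk1*, *Hk2* and *Pfkl*. The first 4 were all higher in letter B, and of the other 4 only *Hk1* was. The percent was 36.2 for *Pgam1*, 24.7 for *Gapdh* and 8.15 for *Gpi1*. Of all 28 glycolytic genes tested, 9 shared at least 5% of their words with pseudogenes, and 7 of these were higher and 0 lower in letter B, while *Minpp1* and *Ldhb* did not pass. Of the 19 genes under 5%, 1 was higher and 6 were lower.

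The following coding stretches show what such copies look like. Each is one that an annotated pseudogene repeats letter for letter (GENCODE vM21, GRCm38). They are in lower case throughout, and every printed base is identical in the named copy.
Pgk1: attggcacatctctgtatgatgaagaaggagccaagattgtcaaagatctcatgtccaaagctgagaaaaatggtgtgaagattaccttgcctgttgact
Eno1: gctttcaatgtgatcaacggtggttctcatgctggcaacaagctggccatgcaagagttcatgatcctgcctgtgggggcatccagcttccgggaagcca
Pkm: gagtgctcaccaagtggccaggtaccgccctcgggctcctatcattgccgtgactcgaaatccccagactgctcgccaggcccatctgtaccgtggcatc
Ldha: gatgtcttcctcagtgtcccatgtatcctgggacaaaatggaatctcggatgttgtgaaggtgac
Gapdh: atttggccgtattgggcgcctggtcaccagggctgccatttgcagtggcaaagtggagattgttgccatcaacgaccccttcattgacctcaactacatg
The *Pgk1* stretch lies in coding exon 8 of 11 at chrX:106200157-106200256 (plus strand) and recurs in *Gm5537* at chr3:58103392-58103491. The *Eno1* stretch lies in exon 7 of 12 at chr4:150245115-150245214 (plus strand) and recurs in *Gm4735* at chr2:80837585-80837684. The *Pkm* stretch lies in exon 10 of 11 at chr9:59678044-59678143 (plus strand) and recurs in *Gm6560* at chr5:22724764-22724863. The *Ldha* stretch lies in exon 8 of 8 at chr7:46854998-46855062 (plus strand) and recurs in *Gm5452* at chr13:83833196-83833260. The *Gapdh* stretch lies in exon 3 of 7 at chr6:125163337-125163436 (minus strand) and recurs in *Gm7336* at chr7:51746720-51746819. The unbroken identity extended over 180 bases for *Pgk1*, 223 for *Eno1*, 124 for *Pkm*, 65 for *Ldha* and 298 for *Gapdh*, of which at most 100 are printed. Coding words of *Gapdh* recurred in at least 208 pseudogenes, those of *Ldha* in at least 14 and of *Eno1* in at least 7. For *Pkm* there were at least 6 and for *Pgk1* at least 4. Not every annotated pseudogene entered these counts, so they are lower bounds.

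A gradient in the same direction was seen beyond glycolysis, in classes of genes that were not matched for level. Among protein-coding genes tested, the median letter difference was -0.16 on the log2 scale in the 8535 genes without a shared word, -0.03 in 3092 genes under 5%, 0.35 in 298 genes from 5% to 10%, 0.64 in 293 genes from 10% to 25% and 0.95 in the 129 genes at 25% or more. Of the last, 60.5% were higher and 5.43% lower in letter B, against 8.08% and 27.9% of genes without a shared word. In the comparison of ages without the letter, the same classes had medians of -0.01, -0.02, -0.11, -0.21 and -0.23, and of -0.05, -0.04, -0.05, -0.07 and -0.03 with the letter as a covariate. The letter difference also moved with level. Its median over all genes tested was -0.475 at a minimum mean of 1 and 0.305 at one of 50. How the reads of either letter were assigned where they match several places is not given in the sources used here. The parts of level and of shared sequence in these differences were not tested.

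**Figure D4:**
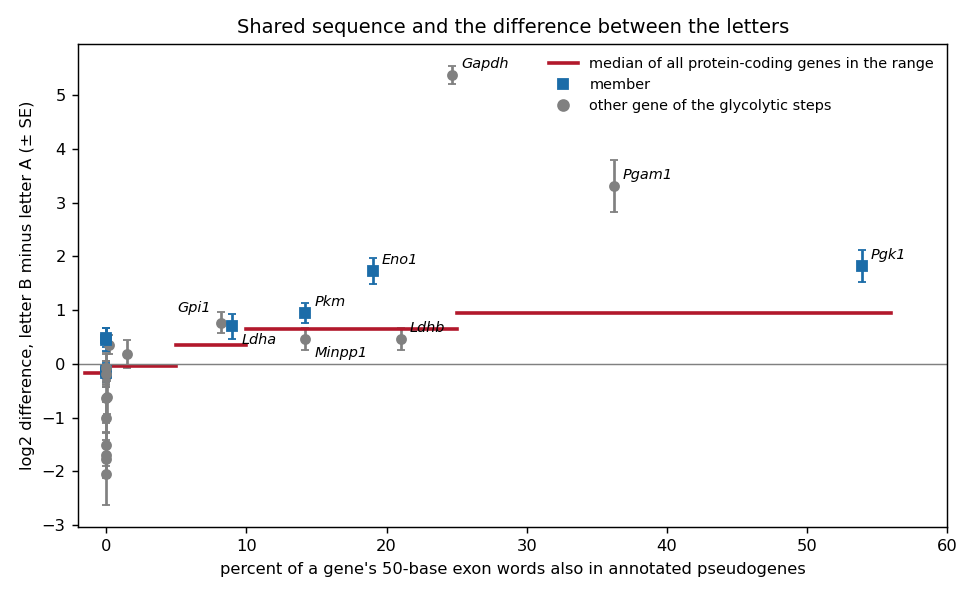
Percent of a gene's 50-base words that also occur in annotated pseudogenes (horizontal axis) against its log2 difference between the letters with SE (vertical axis), for the 8 glycolysis genes (squares) and 19 other glycolytic genes (circles). Red lines give the median of all protein-coding genes in each range, from -0.16 at 0% to 0.95 at 25% or more. The ranges were not matched for level.

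The genes around glycolysis were described from lists of their roles. In the comparison of ages, with or without the letter as a covariate, limma called 0 genes of each of these lists, namely the other glycolytic steps (20 tested), control of the phosphofructokinase step (4), pyruvate entry into mitochondria (13), the pentose phosphate pathway (7), glycogen and hexose phosphates (11), the serine branch (5), hypoxia pathway regulators (11), hypoxia-induced genes outside glycolysis (12) and growth regulators of glucose use (12). Within letter B, 3 genes of these lists were called, all higher in old mice, beside 0.809% of all genes. Without the variance trend limma called 0 genes there, with 848 at an unadjusted p under 0.05. They were *Cited2*, a feedback inhibitor of HIF-1 (log2 difference 0.80, SE 0.17, limma adjusted p = 0.00929), *Txnip*, whose product restrains glucose uptake (0.79, SE 0.19, adjusted p = 0.0395), and its relative *Arrdc4* (0.79, SE 0.20, adjusted p = 0.0395). In the same 6 mice *Txnip* had 1300 ± 101 normalized reads in young and 2245 ± 174 in old mice (SD, n = 3 each), and *Cited2* 371 ± 47.6 and 649 ± 85.0. *Arrdc4* and the values within letter B were chosen after they were seen. At an unadjusted p under 0.05 in all mice without the letter these lists held 1, 0, 1, 0, 0, 1, 0, 1 and 2 genes, beside 488 of all 12354. *Txnip* was not among these (unadjusted limma p = 0.347). It had 1264 ± 187 normalized reads in young (SD, n = 5) and 1775 ± 657 in old mice (SD, n = 7; log2 difference 0.39, SE 0.40, limma adjusted p = 1.0). *Pdk1*, a kinase that inhibits pyruvate dehydrogenase, had 99.2 ± 26.8 and 100 ± 26.1 normalized reads. *Hif1a*, the oxygen-regulated subunit of HIF-1, had 160 ± 58.1 and 147 ± 29.5. *Meis1*, a stem cell transcription factor known to act upstream of *Hif1a*, had 670 ± 198 and 696 ± 267. *Pfkfb3*, which makes an activator of phosphofructokinase, had 90.6 ± 8.79 and 98.4 ± 19.8. In the serine branch, *Phgdh*, which diverts 3-phosphoglycerate to serine, had 57.0 ± 23.2 and 35.6 ± 14.9 (log2 difference -0.69, SE 0.31, limma adjusted p = 1.0). All 5 genes of this branch had estimates below 0, with a median of -0.26 beside -0.02 over all genes tested. Over all 12354 genes tested, 6462 estimates lay below 0. Of the hypoxia-induced genes outside glycolysis, 2 estimates lay above and 10 below 0 (median -0.17). Of the hypoxia regulators 2 lay above and 9 below (median -0.04), and with the letter as a covariate 6 and 5. Within letter B, 2 hypoxia-induced genes lay above and 10 below 0 (median -0.27), and of the regulators 4 and 7.

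Between the letters, with age as a covariate, calls were made in these lists. Of the control genes of the phosphofructokinase step 0 were higher and 1 lower in letter B, of pyruvate entry 0 and 0, of the pentose phosphate pathway 2 and 0, of glycogen 1 and 1 and of the serine branch 1 and 0. Of the hypoxia regulators 2 were higher and 0 lower, of the hypoxia-induced genes 1 and 2 and of the growth regulators 2 and 2, all by limma and beside 10.5% and 25.6% of all genes.

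*Gpi1* had 274 ± 69.3 normalized reads in young (SD, n = 5) and 252 ± 95.3 in old mice (SD, n = 7), and *Slc2a3* 162 ± 32 and 174 ± 33.8. Among genes of pyruvate entry, *Pdha1*, a subunit of pyruvate dehydrogenase, had 174 ± 36.8 and 152 ± 50.8 and the kinase gene *Pdk3* 122 ± 14.4 and 110 ± 42.3. In the pentose phosphate pathway, *G6pdx*, its entry enzyme, had 83.6 ± 12.9 and 87.8 ± 30.5. Of the growth regulators, *Myc* had 324 ± 85.2 and 261 ± 115 and *Mtor* 174 ± 45.7 and 187 ± 32. *Cited2* had 324 ± 89.6 and 449 ± 217. None of these differed between the ages past the threshold by limma over all 12 mice, with or without the letter. Of the cell type markers, *Klrb1c*, a natural killer cell gene, was higher in old mice (log2 difference 1.54, SE 0.28, limma adjusted p = 0.0427). It was the 1 called of 4 genes tested of the T and NK list, and *Nkg7*, another gene of these cells, stood at -0.74 (SE 0.46, adjusted p = 1.0). Of the progenitor genes, *Cd34* was lower with the letter as a covariate (-0.99, SE 0.19, limma adjusted p = 0.00856).

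The genes whose pattern was most like the mean of the 8 glycolysis genes were named by Pearson's r over the 12 mice on the log2 scale, after removing age and letter. They were *Ptger4* (r = 0.99), *Ube2j1* (0.97), *Atp5d* (0.95), *Esam* (0.95) and *Soga1* (0.94). These values are a description, taken as the highest of all genes outside the lists, and the mice also share depth and marker levels. The mean residual of the members was lowest in old mouse 5 (-0.36) and old mouse 7 (-0.21), the mice with the fewest reads of stem cell genes, and highest in old mouse 1 (0.34).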

How the data were processed

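The deposited table of normalized read counts, with 1 column for each of 5 young and 7 old mice, was the only source of expression values. This signal was made by the authors from reads per gene, divided by library size and a scaling factor. The submitters' processing notes name STAR 2.5.4b, FastQC 0.11.8, edgeR 3.24.3 and mm10. The counting tool, its strand setting and the annotation are not given in the sources used here. The value of which all low values of a mouse are whole multiples was taken as 1 read, which gave the integer counts (100% of values whole within 0.001 reads). No interval of counting error is given, and 3 reads corresponded to normalized read counts of 0.583 to 3.69. A table of the authors' own comparison (fold changes, p-values) was not used.

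Values were tested with limma 3.58.1 (R 4.3.3; lmFit, eBayes with trend) on log2(value + 1) for 12354 genes (mean over mice of 10 or more), with Benjamini-Hochberg adjustment over all of them and a threshold of 0.05. Fold changes on this scale understate those of low genes. Ratios were tested with two-sided exact permutation tests over all 792 splits. The planned ratio of *Pfkp* to *Pfkl* could not be computed, so that p-values were adjusted over 3. Count tests used edgeR 4.0.16 and DESeq2 1.42.0 on recovered reads. The fits were also run on simulated counts with known changes, and the outcome is not given here. Positions, exon lengths and 50-base words came from GENCODE vM21 (18745 of 18762 gene identifiers found), and promoters from RefSeq. *Hk2*, *Slc2a1* and *Hk1* overlap annotated genes on the opposite strand, and *Pkm* and *Slc2a1* overlap annotated genes on their own strand. The reads of such overlapping genes cannot be told apart here. Alternatives were other pseudocounts and filters, no trend, the letter as a covariate or alone, a replicate block, other scalings, count tests, thinned reads and leaving out each mouse. The letter-covariate and interaction fits under these alternatives, the fits within letter B and those without 2 mice were added after the data were seen. The rule for named genes took all glycolysis genes, from each list the genes called by age and the 3 with the highest mean, the markers, and the 5 genes outside the lists most like the members' mean, of which the text gives a selection. The members and lists were chosen with earlier results of these data known. A pair of list genes is not reported here by name, and the counts and sums of their lists include them.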

Additional observations from a re-analysis of the deposited data

Results flagged for a closer look

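Of 22 sets of values tested for a sample far from the others (each glycolysis gene and ratio in young and in old mice), 1 was flagged, where chance gives about 1.10. The log2 ratio of *Slc2a1* to *Slc2a3* was -0.326 in old mouse 5, while the other old mice had -1.98 to -1.38. Old mouse 5 had 113 reads of *Slc2a1*, the second lowest depth and the lowest sum of stem cell genes. Without it, the ratio differed by -0.48 between the ages (exact permutation test, adjusted p = 0.0292 over the 3 ratios). With all mice the ratio differed by -0.29 (adjusted p = 0.494 in the same test). Old mouse 5 was singled out by this same ratio, so leaving it out enlarges the difference by construction. The smaller p is therefore no support for a difference.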

How the results depend on the processing

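In the age comparison, 199 of 223 values of single glycolysis genes under another setting kept their direction and their side of the threshold, and 23 changed sign. Of these, *Hk1* stood at 0.03 with the letter as a covariate, 0.03 in letter A, 0.04 in letter B and 0.18 without old mice 5 and 7. *Pgk1* stood at 0.14 with the letter, 0.64 in letter A and 0.02 without old mice 5 and 7, where *Eno1* stood at 0.10, with or without the letter. The 13 genes called by age became 2 without the variance trend, 5 under median ratio rescaling, 46 by DESeq2, 37 with the letter, 1 in letter A, 100 in letter B (1 glycolysis gene) and 49 without old mice 5 and 7. With the letter, 37 became 8 without the trend, 85 by DESeq2 and 118 without old mice 5 and 7 (1 glycolysis gene). The interaction's 2 became 1 at a minimum mean of 50, 0 without the trend and 4 by DESeq2. Within letter B, the 100 genes and 1 glycolysis gene became 0 and 0 without the trend, and edgeR with TMM factors called 0 glycolysis genes. Between letters, a minimum mean of 50 left 943 genes and 3 glycolysis genes (*Pgk1* is then not tested), no trend left 3, and median ratio rescaling turned *Slc2a1* to 0.16 and *Pfkl* to 0.14. The *Ldha* to *Ldhb* ratio was -0.20 in letter A. The cause of these changes was not tested.

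Leaving out 1 mouse at a time gave 3 to 32 genes by age, with 32 without old mouse 5, 7 or fewer without young mouse 1, 3, 4 or 5 or old mouse 1, 2, 3 or 6, and the lowest without young mouse 3 or 4 or old mouse 1, 2 or 3. The ranges were -0.15 to 0.06 for *Hk1*, -0.69 to 0.08 for *Pgk1* and -0.08 to 0.24 for *Pkm*. With the letter there were 23 to 76 genes (76 without old mouse 5, 23 or 24 without young mouse 1, 3 or 4) and 0 to 1 glycolysis genes, *Hk1* at -0.04 to 0.09 and *Pgk1* at -0.20 to 0.28. The interaction gave 0 to 6 genes (6 without old mouse 1). Within letter B there were 49 to 108 genes (49 without old mouse 2, 58 without young mouse 4) and 0 to 1 glycolysis genes. Between letters there were 2943 to 5003 genes (2943 without young mouse 2) and 3 to 6 glycolysis genes (3 without old mouse 4). The ratio shifts were 0.46 to 0.65 for *Hk2* to *Hk1*, -0.06 to 0.20 for *Ldha* to *Ldhb* and -0.48 to -0.19 for *Slc2a1* to *Slc2a3*.

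Young and old mice share the numbers 1 to 5, which were not taken as a pairing in the main fit. Same-numbered mice deviated from their group means with correlations across genes of 0.18, -0.559, 0.402, 0.615 and 0.0437. The letter was left in these deviations, and the mice numbered 2 and those numbered 5 differ in letter, while the others share it. The correlations therefore cannot tell a pairing apart from the letter. With the replicate block in these 10 mice, 19 genes and 0 glycolysis genes were called by limma, against 8 and 0 without the block. *Hk2* stood at 0.48 under the block, *Hk1* at 0.06 and *Pgk1* at 0.12, the last 2 also without the block, and the *Hk2* to *Hk1* ratio at 0.42 (exact permutation test, adjusted p = 0.188).

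Depth limits the lowest members most, as *Pgk1* rested on 11 reads in 1 mouse. Letter and depth cannot be told apart in these mice, ages are unequal over the letters, and no label says that the 12 mice were processed independently, so p-values measure the spread between these samples.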
